A study of Homo sapiens with 4 samples.

Results

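EHF, ELF3, ELF5 and SPDEF are 4 ETS-family transcription factors whose expression is largely restricted to epithelia. They were described here on the 16 probe sets annotated to only 1 of these 4 symbols, out of 54675 probe sets on each array and 19775 genes with a single-symbol probe set. The genes were chosen from earlier results on these same arrays, in which EHF stood among the few genes higher with both KSR1 hairpins, so differences between hairpin arrays and the other arrays are given as a description with no test. RNA came from HCT116, an established human colorectal adenocarcinoma line, in 4 states with 1 array each: cells with a hairpin vector named shRNA #1 that targets KSR1, cells with shRNA #2 that targets KSR1, cells with the non-targeting vector shCTRL, and untransfected cells. KSR1 is a scaffold that holds RAF, MEK and ERK kinases together. The hairpin and shCTRL cells had been transfected by lipofection and selected as clones with puromycin, which the untransfected cells had not. The labels do not say whether an array held 1 clone or a pool.

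ETS proteins share a winged helix-turn-helix domain that contacts a GGAA core in DNA, and several members of the family are substrates or transcriptional outputs of ERK signalling. EHF, ELF3 and ELF5 form the ESE subgroup of epithelium-specific ETS factors, and SPDEF is a more distant prostate-derived relative that drives maturation of secretory cells in the mouse intestine. In mouse gut, Elf3 is needed for normal epithelial differentiation, and in mouse mammary gland Elf5 specifies milk-secreting cells.

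Promoter windows of EHF and of ELF3, the other member with bright probe sets, are shown because EHF is the one of the 4 genes whose signal differed most between these arrays. Each window runs from 250 bases before to 50 bases from the start of transcription in RefSeq (GRCh38.p14), printed 5′ to 3′ on the gene's own strand, with every GGAA or its complement TTCC in capitals. RefSeq gives EHF 2 such windows, both on the plus strand of chromosome 11, at chr11:34624007-34624306 and chr11:34632316-34632615, and ELF3 1, on the plus strand of chromosome 1 at chr1:202010337-202010636.
EHF upstream start: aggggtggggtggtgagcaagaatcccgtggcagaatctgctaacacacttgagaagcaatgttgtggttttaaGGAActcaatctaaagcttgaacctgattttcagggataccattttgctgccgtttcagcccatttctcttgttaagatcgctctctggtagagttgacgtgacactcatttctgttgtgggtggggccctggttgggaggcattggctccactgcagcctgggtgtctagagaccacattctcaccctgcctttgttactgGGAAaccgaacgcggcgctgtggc
EHF downstream start: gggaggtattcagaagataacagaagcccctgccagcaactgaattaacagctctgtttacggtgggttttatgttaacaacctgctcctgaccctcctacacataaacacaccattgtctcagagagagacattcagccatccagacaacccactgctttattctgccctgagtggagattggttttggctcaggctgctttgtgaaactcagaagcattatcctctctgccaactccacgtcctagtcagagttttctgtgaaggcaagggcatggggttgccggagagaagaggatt
ELF3: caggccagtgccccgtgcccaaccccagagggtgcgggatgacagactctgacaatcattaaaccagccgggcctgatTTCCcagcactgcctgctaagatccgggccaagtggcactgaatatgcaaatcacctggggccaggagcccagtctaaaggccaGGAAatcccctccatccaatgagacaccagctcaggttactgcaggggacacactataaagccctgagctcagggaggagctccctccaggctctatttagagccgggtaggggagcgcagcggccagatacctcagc
The upstream EHF window and the ELF3 window each held 2 GGAA cores on either strand, and the downstream EHF window held 0. Of 35116 such windows in the table, 95.5% held at least 1 core and 83.8% at least 2, with a median of 3. ELF5 and SPDEF held 4 each. The longer ETS site CCGGAA, which includes the same core and was found in 17.2% of windows, was in none of the 5 windows of the 4 genes, and neither was the AP-1 site TGANTCA, found in 7.71%. A TATAAA box, found in 11.5% of windows, was present in the ELF3 window alone. The EHF windows had GC contents of 51.3% and 48.3% with 8 and 3 CpG dinucleotides, and the ELF3 window 59.0% with 7, against medians of 58.7% and 14. No array value depends on these letters, and a match is not evidence of binding.

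The arrays differed little in their overall brightness. Median intensities lay between 50.7 and 52.0. Probe sets at the 3′ end of a gene were read over those at the 5′ end, a ratio that rises as RNA degrades. For actin it was 2.01 with hairpin #1, 2.22 with hairpin #2, 2.09 in shCTRL and 2.68 in untransfected cells. For GAPDH it was 1.14, 1.19, 1.17 and 1.16 in the same order, so the untransfected array stood apart for actin only. The targeted gene had intensities of 141 and 171 with hairpins #1 and #2, against 211 in shCTRL and 209 in untransfected cells, on its brightest probe set. Its other 3 probe sets were dim, between 27.8 and 60.4, and did not separate the hairpin arrays from the others. The epithelial markers EPCAM, KRT8 and KRT18 were bright on every array (EPCAM between 7855 and 8119). Intestinal markers were mixed, with VIL1 and CEACAM5 near the array medians and LGALS4 below them. CDX1 (144 to 159) and CDX2 (79.9 to 131) were above the medians on every array, and KRT20 ranged from 52.5 to 275. Of markers of other cell types, 0 of 10 leukocyte genes, 1 of 8 endothelial genes and 5 of 12 fibroblast genes reached the brightness filter used below, and their summed intensities ranged from 242 to 277, from 241 to 272 and from 838 to 947. In bulk RNA, a difference in the share of cells that express a gene and a difference in its level per cell cannot be told apart.

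EHF signal was higher in both KSR1 hairpin arrays than in both others on each of its 6 probe sets. On the brightest, 225645_at, the intensity was 2079.9 with hairpin #1 and 3328 with hairpin #2, against 855 in shCTRL and 469.6 in untransfected cells. The groups did not overlap. Both hairpin arrays stood above both others in 22.5% of all genes analysed below. The 4 arrays stood in steps, with hairpin #2 highest and untransfected cells lowest. The ratio to shCTRL was 2.43 for hairpin #1 and 3.89 for hairpin #2, and shCTRL itself stood at 1.82 times the untransfected signal. Those values put the probe set at percentiles 96.7, 98.2, 91.5 and 85.9 of the hairpin #1, hairpin #2, shCTRL and untransfected arrays.

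The other 5 EHF probe sets repeated the order hairpin #2, hairpin #1, shCTRL, untransfected from high to low. On 232361_s_at the intensities were 220 and 321 with hairpins #1 and #2, against 103 in shCTRL and 57.0 in untransfected cells. On 232360_at they were 181 and 229, against 71.0 and 49.0 in the same order. On 224189_x_at they were 114 and 187, against 45.4 and 25.6. All 3 were therefore near or under the array medians in untransfected cells and clearly above them with either hairpin. Probe set 219850_s_at had 106 and 134 with hairpins #1 and #2, against 30.3 in shCTRL and 19.3 in untransfected cells. The dimmest, 222932_at, had 46.8 and 61.2, against 20.0 and 13.1, and so exceeded an array median with hairpin #2 alone. Across the 6, the ratio of hairpin #1 to shCTRL ran from 2.13 to 3.51, that of hairpin #2 to shCTRL from 3.05 to 4.44, that of hairpin #2 to hairpin #1 from 1.26 to 1.64, and that of shCTRL to untransfected cells from 1.45 to 1.82. In 4 of the 6 the lower hairpin array exceeded the higher of the others by 1 log2 unit or more, as in 0.0241% of genes analysed below. Probe sets of 1 gene share the same RNA and are not replicates. EHF was chosen on this contrast, so nothing is read from that count.

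**Figure D1:**
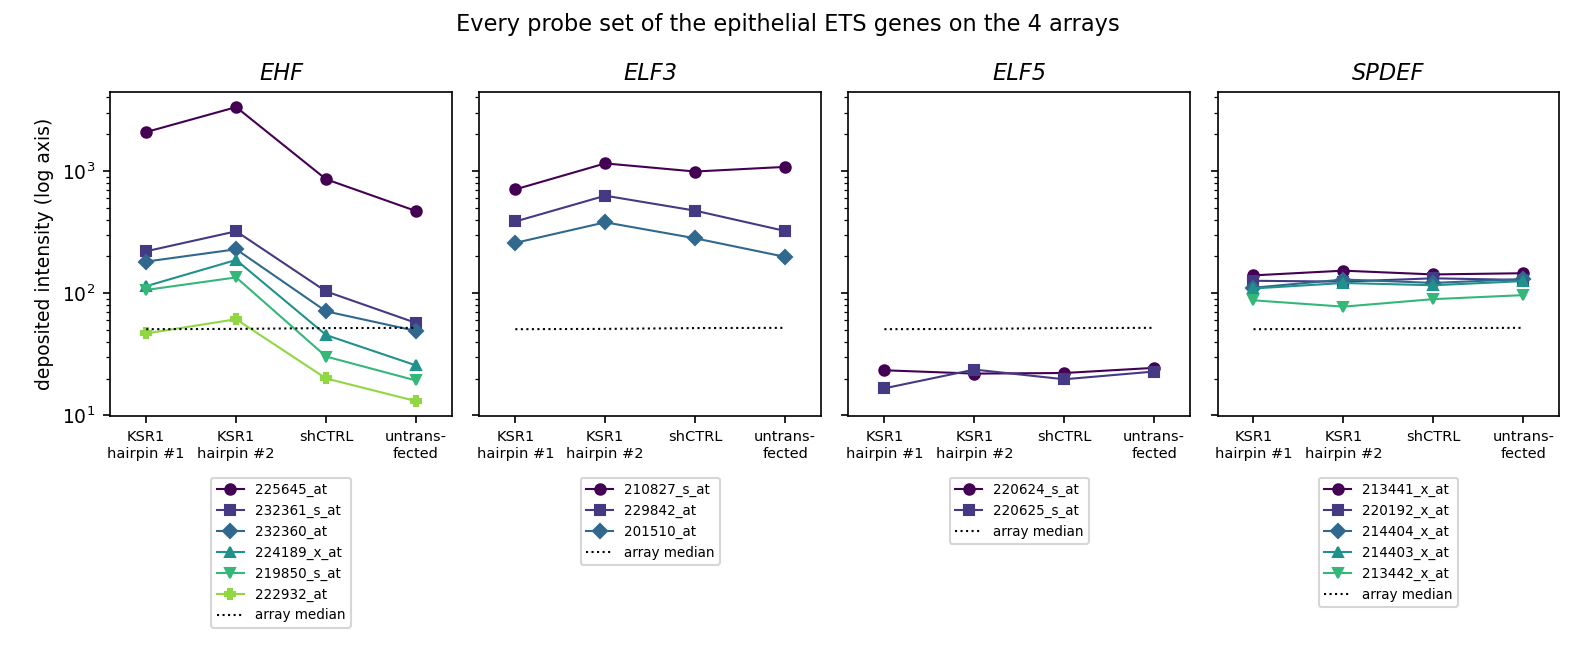
Deposited intensity (log axis) of every single-symbol probe set of EHF, ELF3, ELF5 and SPDEF on the 4 arrays, 1 array per state, with lines joining the values of a probe set and a dotted line at the array median. The 6 EHF probe sets share 1 order of the arrays, the 3 ELF3 probe sets are highest with hairpin #2, the 2 ELF5 probe sets lie below the median and the 5 SPDEF probe sets lie close together between 77.5 and 153.

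ELF3 did not separate the hairpin arrays from the others, and its probe sets disagreed about the control arrays. The brightest, 210827_s_at, had an intensity of 706 with hairpin #1 and 1152 with hairpin #2, against 988 in shCTRL and 1079 in untransfected cells, so hairpin #1 was lowest and hairpin #2 highest. Probe set 229842_at had 386 and 627 with hairpins #1 and #2, against 473 in shCTRL and 322 in untransfected cells. Probe set 201510_at had 258 and 379.7, against 281 and 198. On these 2 the untransfected array was lowest, while on the brightest it stood second. The 3 agreed that hairpin #2 exceeded shCTRL (ratios of 1.17 to 1.35), that hairpin #1 was below shCTRL (0.714 to 0.917), and that hairpin #2 exceeded hairpin #1 (1.47 to 1.63).

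SPDEF signal was nearly flat. All 5 of its probe sets carry the suffix _x_at, which the array maker gives to probe sets whose probes may also match other transcripts, and their intensities over the 4 arrays ran from 77.5 to 153. On the brightest, 213441_x_at, the intensity was 139.7 with hairpin #1 and 153 with hairpin #2, against 142 in shCTRL and 146 in untransfected cells. The 4 arrays were thus within a ratio of 1.09 (hairpin #2 over hairpin #1) of each other. Hairpin #1 over shCTRL ran from 0.913 to 0.982 over the 5 probe sets, and hairpin #2 over shCTRL from 0.868 to 1.07.

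ELF5 was dim on every array. Probe set 220624_s_at had 23.4 and 22.0 with hairpins #1 and #2, against 22.2 in shCTRL and 24.5 in untransfected cells, and 220625_s_at had 16.6 and 23.7, against 19.7 and 22.8. Both lay at or under percentile 31.5 of all probe sets on every array, where signal was not told apart from background because no detection calls were used. No direction is therefore read from ELF5 differences, although the gene lies next to EHF.

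For comparison across genes, intensities were converted to log2(intensity + 16), which understates differences of dim probe sets, and each gene took its probe set with the highest mean. Genes with a mean of at least log2 6.08, the midpoint of all probe sets, were analysed (12468), and EHF, ELF3 and SPDEF passed this filter and ELF5 did not. EHF, on this scale, was 2.03 higher over both hairpin arrays than over both others (SE 0.37, limma), and the nearest arrays of the 2 sides, hairpin #1 and shCTRL, were 1.27 apart. A separation of 1 log2 unit or more, upwards with both hairpins, was found for 3 genes (0.0241%) and downwards for 4 (0.0321%), and EHF was the 1 ETS-family gene among them. The choice of EHF used this contrast, so nothing is read from that count. limma, with 2 residual degrees of freedom that measure the spread between different hairpins and different controls, called 0 of the 12468 genes at a Benjamini-Hochberg adjusted p under 0.05 (0%), against 882 (7.07%) when p was left unadjusted. The smallest adjusted p was 0.318.

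Compared array by array, EHF was 1.27 log2 units higher with hairpin #1 than in shCTRL and 1.94 higher with hairpin #2 than in shCTRL. Relative to untransfected cells it was 2.11 and 2.78 higher. Genes at least 1 log2 unit above shCTRL made up 0.112% with hairpin #1 and 0.979% with hairpin #2, and above untransfected cells 0.249% and 1.29%. EHF in shCTRL exceeded its untransfected value by 0.84, and it was 0.67 higher with hairpin #2 than with hairpin #1. Those 2 differences stayed under the 1-unit mark, which 0.481% of genes passed upwards in shCTRL and 1.07% with hairpin #2. None of EHF, ELF3 and SPDEF was lower by 1 unit in any of these pairs, a mark that 0.433% of genes passed with hairpin #1 and 0.922% with hairpin #2 relative to shCTRL, 0.505% and 0.987% relative to untransfected cells, 0.642% with hairpin #2 relative to hairpin #1, and 0.369% in shCTRL relative to untransfected cells. With 1 array per state, none of these differences has an error from replicates.

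The order of the arrays seen for EHF was common when size was ignored. It was found in 943 genes (7.56%), and in 47 (0.377%) the lowest and highest arrays were also at least 1 log2 unit apart. With every step at least 0.5 log2 units, 3 genes were left (0.0241%), EHF and the kallikrein proteases KLK6 and KLK10. EHF was chosen with the hairpin contrast known, so nothing is read from that count. Its probe sets 232361_s_at and 224189_x_at also had every step at that size, while 232360_at, 219850_s_at and 222932_at did not. KLK6 had 804 and 2783 with hairpins #1 and #2, against 437 in shCTRL and 252 in untransfected cells. KLK10 had 457 and 4672, against 297 and 168, so its last step was much larger than that of EHF.

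ELF3 differed by -0.48 between hairpin #1 and shCTRL and by 0.22 between hairpin #2 and shCTRL on its brightest probe set. The SD between shCTRL and untransfected cells among the 500 genes of like brightness was 0.26. The first difference exceeded it and the second did not. On 229842_at and 201510_at the hairpin #1 difference was smaller, at -0.28 and -0.12, and the hairpin #2 difference larger, at 0.39 and 0.41. The difference of shCTRL minus untransfected was -0.12 on the brightest probe set but 0.53 on 229842_at and 0.47 on 201510_at. That of hairpin #2 minus untransfected was 0.09, 0.93 and 0.89, so the place of the untransfected array depended on the probe set. The mean of its hairpin arrays minus that of the others was -0.19, and without hairpin #1 this turned to 0.16. It also turned to 0.17 when the 3 probe sets were averaged, so no direction is given for ELF3 in that contrast. SPDEF stood at 0.02 on its brightest probe set. None of its 4 arrays differed from another there by more than 0.12, less than the SD of 0.33 among genes of like brightness. On 213442_x_at hairpin #2 minus untransfected was -0.26. Both hairpin arrays lay below both others on 2 of the 5 SPDEF probe sets, by gaps of -0.02 and -0.03, and above them on 0. They lay below in 18.4% of all analysed genes.

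**Figure D2:**
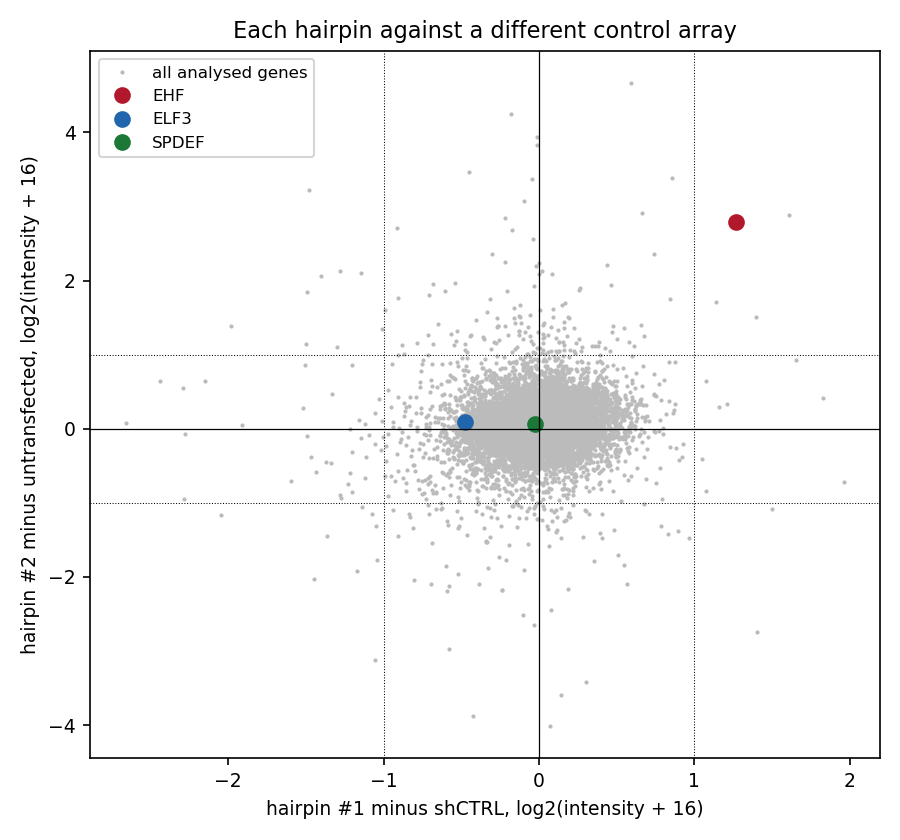
Difference of hairpin #1 minus shCTRL (x axis) against hairpin #2 minus untransfected (y axis), both in log2(intensity + 16), for the 12468 analysed genes (grey) and for EHF, ELF3 and SPDEF, with dotted lines at 1 log2 unit. The 2 differences share no array. EHF lies at 1.27 and 2.78, one of 4 of the 12468 genes at least 1 unit up on both axes. In the other pairing, hairpin #2 minus shCTRL and hairpin #1 minus untransfected, 6 genes passed, EHF among them. EHF was chosen with the hairpin contrast known, so nothing is read from these counts. ELF3 lies at -0.48 and 0.09 and SPDEF at -0.02 and 0.06.

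Genes lying beside EHF on chromosome 11 differed less between hairpin and other arrays than EHF did, though APIP shared its order of arrays. The 4 nearest protein-coding genes with a probe set on either side were taken in the order of the RefSeq gene table, and 7 of these 8 passed the filter. The neighbour on one side is ELF5, which was dim, and on the other APIP, a methionine salvage enzyme. APIP had 1222 and 1271 with hairpins #1 and #2, against 1071 in shCTRL and 858 in untransfected cells, a difference of 0.37 over both hairpin arrays and the same order as EHF. PDHX, a pyruvate dehydrogenase subunit, had 1170.2 and 1441, against 1144 and 1292, and the catalase gene CAT had 1100.5 and 1332, against 1043 and 1176. CD44, the hyaluronan receptor, had 3632 and 2694, against 5848 and 3539, so shCTRL stood apart there. Of the 7, 2 had both hairpin arrays above both others (background 22.5%) and 0 had them below (18.4%), and differences ran from -0.54 to 0.37. Of the neighbours of ELF3 on chromosome 1, 4 of 8 passed the filter, with differences from -0.03 to 0.33, the highest for the mitochondrial import gene TIMM17A. All 8 neighbours of SPDEF on chromosome 6 passed, with differences from -0.10 to 0.37.

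The genes with the profile most like that of EHF were found by the Euclidean distance between log2 values centred on each gene's mean over the 4 arrays, and for so few arrays the measure is a description. The nearest were PRKAA2, a catalytic subunit of AMP-activated kinase (distance 0.61), CCN3, a secreted matricellular protein (0.73), KLK6 (0.78) and MECOM, a zinc finger factor (0.92). PRKAA2 and MECOM were the other genes past the upward separation of 1 log2 unit, so their nearness is not independent of the contrast EHF was chosen for. By the same measure, 11643 of the 12468 genes lay within 0.61 of a flat profile. CCN3 had 152 and 389.6 with hairpins #1 and #2, against 84.4 in shCTRL and 63.0 in untransfected cells, so it kept the order of EHF with a larger step between the hairpins. PRKAA2 had 221 and 219, against 61.6 in shCTRL and 15.99 in untransfected cells, which is below that array's lower quartile of 18.6. MECOM had 125 and 139, against 37.6 and 38.5, so its 2 control arrays were level where those of EHF were not. ELF3 had closer matches because its profile is flatter: XYLT1, a xylosyltransferase (0.034), the long noncoding RNA TUG1 (0.046), PPP1R12A, a myosin phosphatase subunit (0.068), and MEGF6 (0.073). All 4 were lowest with hairpin #1 and highest with hairpin #2, as ELF3 was on its brightest probe set. TUG1, for one, had 601 and 961 with hairpins #1 and #2, against 805 in shCTRL and 899 in untransfected cells. The profiles nearest to SPDEF, those of ZNF174, SLC9A3-OT1, ZFHX4 and THAP8, were as flat as its own.

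**Figure D3:**
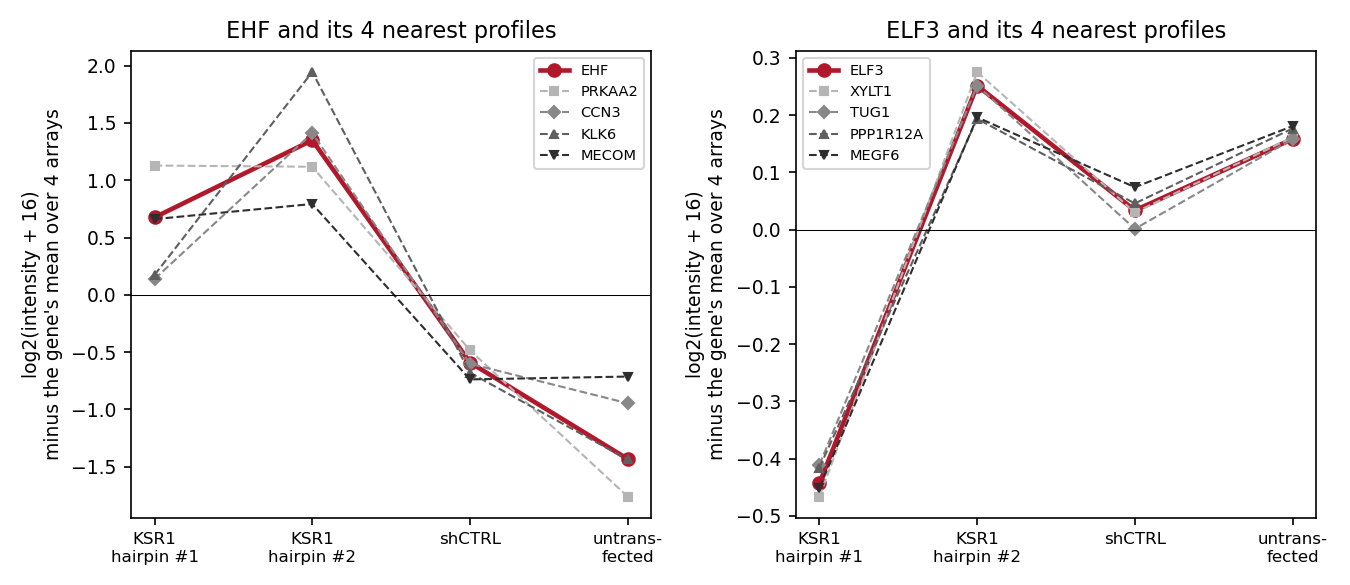
Log2(intensity + 16) minus each gene's mean over the 4 arrays, 1 array per state, for EHF (left) and ELF3 (right) with the 4 genes of smallest Euclidean distance to each. EHF steps down from hairpin #2 to hairpin #1, shCTRL and untransfected cells. ELF3, shown on its brightest probe set, is low with hairpin #1 alone. On 229842_at and 201510_at, not shown here, the untransfected array was lowest.

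Of 28 human ETS genes, 27 had a single-symbol probe set and 18 passed the filter, and EHF was the only one of these 18 in which both hairpin arrays stood above both others. The remaining 15 outside the epithelial group had 0 above and 0 below, against 22.5% and 18.4% of all genes, and 11 of the 15 differed by less than 0.25 log2 units between hairpin and other arrays. limma called 0 of the 18, with a smallest adjusted p of 0.668. At an unadjusted p under 0.05 there was 1, EHF itself, against 7.07% of all genes. EHF was chosen on this contrast, so nothing is read from that p. The largest difference among the 15 was that of ETV1, a PEA3-group factor linked to ERK signalling, at -0.98. ETV1 had 177 and 62.8 with hairpins #1 and #2, against 153 in shCTRL and 336 in untransfected cells, so hairpin #1 lay between the control arrays. ETS1, a founding member of the family, had 163 and 43.2, against 139.9 and 115, and was low with hairpin #2 alone. ELK3, a ternary complex factor, had 2300.3 and 1647, against 2254 and 3004, and the repressor ETV6 had 375 and 399, against 440.4 and 196, low in untransfected cells. ETV1 and ETS1 were the 2 of the 15 at least 1 log2 unit below shCTRL with hairpin #2 (background 0.922%), at -1.10 and -1.40, and with hairpin #1 they stood at 0.19 and 0.20.

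Differences were small for the other ETS genes. ELF1, ELF2 and ELF4, which are expressed widely, differed by 0.09, -0.01 and 0.02 between hairpin and other arrays, the repressors ETV3 and ERF by 0.09 and 0.08, the ternary complex factors ELK1 and ELK4 by 0.05 and -0.04, ETS2 by 0.01 and GABPA, which pairs with a partner subunit at housekeeping promoters, by -0.15. ETV4 and ETV5, the other PEA3 factors, differed by -0.23 and -0.15. The endothelial and blood factors FLI1, ERG, SPI1, SPIB and SPIC, together with FEV, ETV2 and ETV7, were below the filter.

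**Figure D4:**
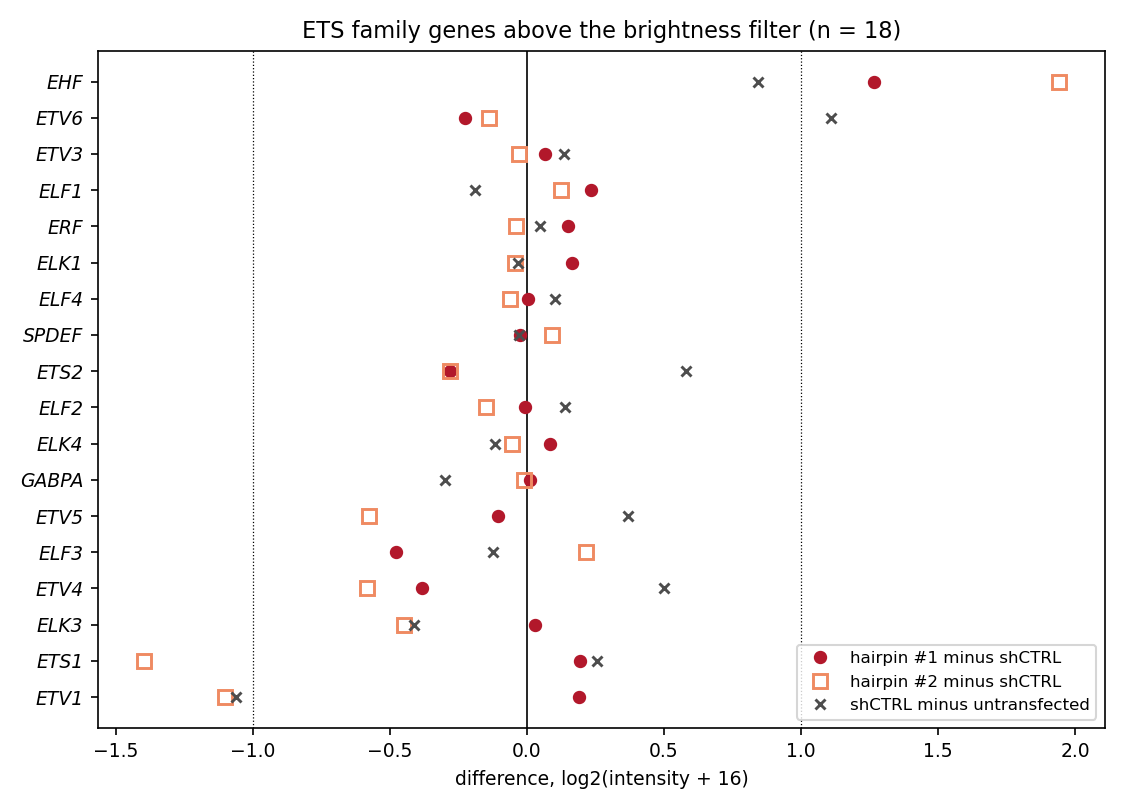
Differences in log2(intensity + 16) for the 18 ETS-family genes above the filter, 1 row per gene, as hairpin #1 minus shCTRL (filled circle), hairpin #2 minus shCTRL (open square) and shCTRL minus untransfected (cross), with dotted lines at 1 log2 unit. EHF has its marks at 1.27, 1.94 and 0.84, ETV1 and ETS1 have hairpin #2 left of -1, and ETV6 has its shCTRL mark at 1.11.

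Genes reported to carry promoters that respond to ELF3 or EHF were mostly too dim to follow, with 7 of 19 measured genes above the filter. Of these 7, 4 had both hairpin arrays above both others and 0 below (background 22.5% and 18.4%), by gaps of at most 0.17 log2 units, and the median difference was 0.20 against 0.02 over all genes. TGFBR2, the type II TGF-beta receptor and a target of ELF3 in mouse intestine, had 528 and 565 with hairpins #1 and #2, against 469 in shCTRL and 395 in untransfected cells. The tight junction gene CLDN4 had 494 and 559, against 479 and 342. HEXIM1, an inhibitor of transcription elongation, had 1118 and 1109.9, against 1048 and 891. LCN2, the siderophore-binding lipocalin, had the largest difference of the 7 (0.70) but did not separate the groups, with 56.5 and 230.2 against 63.2 and 69.7, so hairpin #2 stood alone. Leaving out hairpin #2 gave a median of 0.04, leaving out shCTRL 0.32 and leaving out the untransfected array 0.11. With all 4 arrays limma called 0 of the 7, with 1 at an unadjusted p under 0.05, against 7.07% of all genes.

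Goblet and secretory genes linked to SPDEF were mostly dim. Of 19 measured, 6 passed the filter, 0 had both hairpin arrays above both others and 3 had them below (background 22.5% and 18.4%), with a median difference of -0.09, and limma called 0, also with 0 at an unadjusted p under 0.05. The goblet mucin MUC2 had 56.4 and 51.0 with hairpins #1 and #2, against 48.5 in shCTRL and 46.2 in untransfected cells, and TFF3, a trefoil peptide of goblet cells, had 43.3 and 43.0, against 49.0 and 47.1, all near or under the array medians. KLF4, a transcription factor of differentiating epithelium, was bright, with 1293 and 2107, against 1626 and 2958, highest in untransfected cells. KLK1 had 99.04 and 123, against 143 and 129, and GFI1, a repressor in secretory progenitors, had 91.1 and 83.4, against 93.6 and 96.5. The gastric mucin MUC5AC had 53.2 and 47.0, against 54.0 and 53.8. Milk and mammary genes linked to ELF5 were dim as well, with 2 of 9 above the filter, STAT5A and STAT5B, at differences of -0.01 and -0.16, of which 0 had both hairpin arrays above both others and 1 had them below, against the same background of 22.5% and 18.4%, and 0 were called by limma or reached an unadjusted p under 0.05.

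Several epithelial regulators were high with hairpin #2 alone. Of 15 measured, 11 passed the filter, 2 (18.2%) had both hairpin arrays above both others and 1 (9.09%) below, against 22.5% and 18.4% of all genes, the median difference was 0.21, and limma called 0, with 0 at an unadjusted p under 0.05. KLF5, a factor of proliferating crypt cells, had 366 and 1097 with hairpins #1 and #2, against 254 in shCTRL and 467 in untransfected cells. OVOL1, a repressor that maintains epithelial identity, had 376 and 766, against 385 and 393. In both, hairpin #2 stood above the other 3 arrays while hairpin #1 did not leave the range of the control arrays, or left it at the low end in OVOL1. TFAP2A had 640.4 and 704, against 569.6 and 313, in the order of EHF. The median was 0.54 without hairpin #1 and turned to -0.03 without hairpin #2.

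Junction and surface genes of epithelia were bright and showed small differences. Of 24 measured, 23 passed the filter, and 11 (47.8%) had both hairpin arrays above both others and 2 (8.70%) below, against 22.5% and 18.4% of all genes. The median difference was 0.10 against 0.02 over all genes, differences ran from -0.38 to 0.45, and limma called 0, with 0 at an unadjusted p under 0.05. E-cadherin (CDH1) had 1816 and 2335 with hairpins #1 and #2, against 1775 in shCTRL and 1660.3 in untransfected cells, a gap of 0.03 log2 units. The desmosomal cadherin DSC2 had 1256 and 1699, against 979 and 1153, and ST14, the membrane protease matriptase, had 1148 and 1358, against 1068 and 981. TJP3, a tight junction scaffold, had 164 and 238, against 167 and 145, and so did not separate the groups. The 2 genes with both hairpin arrays below both others were the desmosomal plaque gene DSP, at 3870.1 and 3798 against 4318 and 4331, and the protease inhibitor gene SPINT1, at 712 and 726 against 816 and 757. CLDN3 had 235 and 197, against 343 in shCTRL and 235 in untransfected cells, with shCTRL highest and the hairpin #1 and untransfected values identical in the deposited table, for a reason not tested. The median was 0.04 without the untransfected array and 0.18 without hairpin #1.

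**Figure D5:**
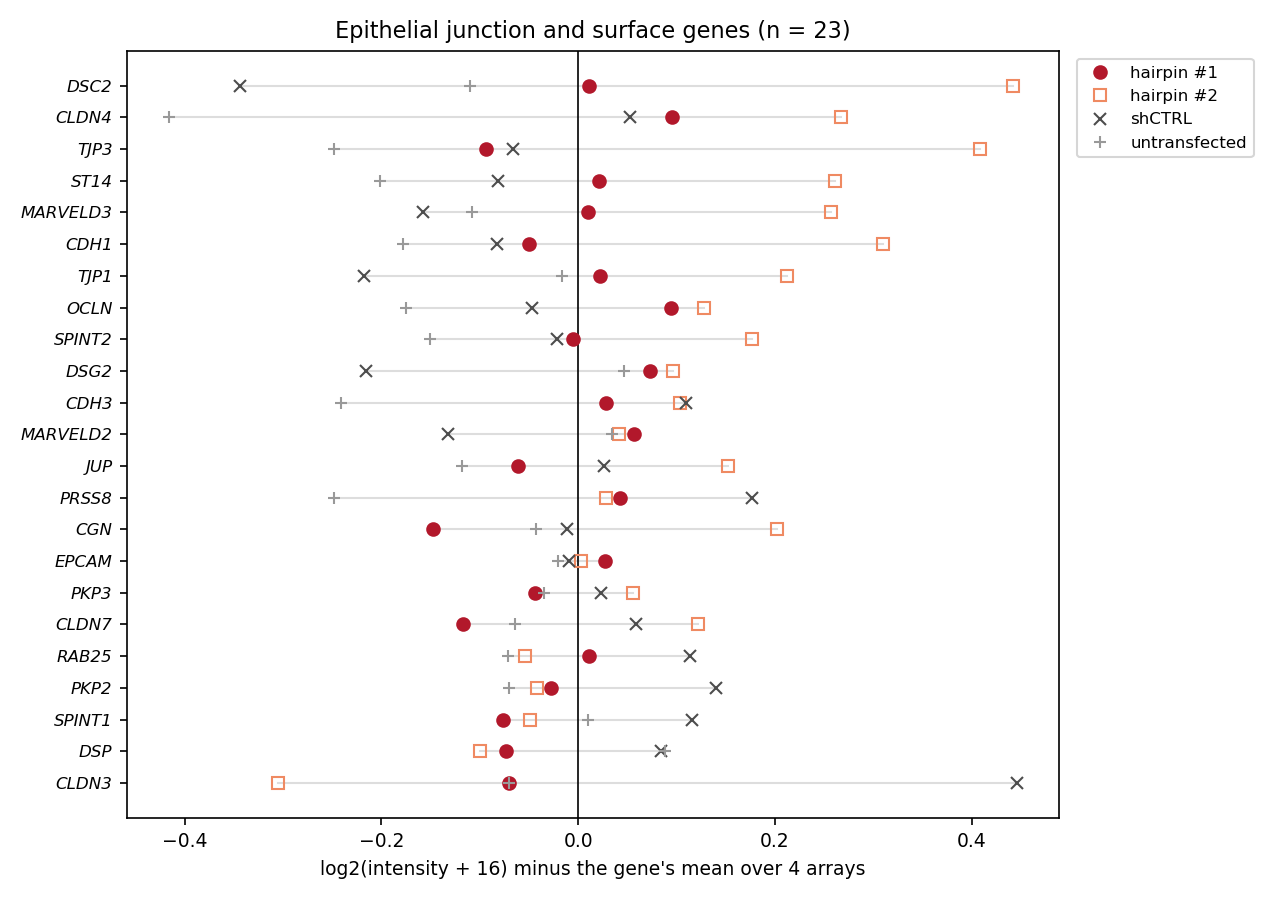
Log2(intensity + 16) minus each gene's mean over the 4 arrays for the 23 epithelial junction and surface genes above the filter, 1 row per gene and 1 mark per array. In 11 of the 23 rows both hairpin marks lie right of both others, and in CLDN3 the shCTRL mark lies right of the other 3.

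Scaffold and kinase genes of the RAS-ERK pathway showed no common direction. All 11 measured passed the filter. Of these, 2 (18.2%) had both hairpin arrays above both others and 3 (27.3%), KSR1 among them, had them below. The shares of all genes were 22.5% and 18.4%. The median difference was 0.00, and limma called 0. At an unadjusted p under 0.05 there was 1, the targeted KSR1 itself, against 7.07% of all genes. PEBP1, an inhibitor of RAF, had 4396 and 3779 with hairpins #1 and #2, against 5009 in shCTRL and 4689 in untransfected cells, and MAP2K1, which encodes the kinase MEK1, had 1425 and 1332, against 1487 and 1616. The largest difference in the list after those of KSR1 and PEBP1 was that of the scaffold IQGAP1 (0.22), which had 2029 and 1838 against 1335 and 2038.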

How the data were processed

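Total RNA (2.5 micrograms) was labelled as biotinylated cRNA for Affymetrix arrays, per the labels' protocols, 1 array per state. The authors deposited 1 linear intensity per probe set and array. Their background correction, summary and normalization are not given in the sources. Gene names came from GEO's annotation of the platform: 41097 had 1 symbol, 1801 several and 11777 none, and 0 symbols differed from RefSeq where matched. From the deposited values, log2(intensity + 16) was computed with no further scaling. limma 3.58.1 (lmFit, eBayes, Benjamini-Hochberg) compared both hairpin arrays with both others over 12468 genes and was tested on simulated data. The 1 log2 unit mark means 2-fold. The members, lists and tests were chosen with earlier results of these data known, and the lists were compiled from general knowledge. Genes named were the members, KSR1, their 4 nearest profiles, 4 RefSeq neighbours on each side, all ETS genes, and the list members with the largest differences. Others, such as MUC2, TFF3, CDH1, DSP, EPCAM and KLK10, were chosen after their values were seen. List members without a value were not analysed here. Alternatives covered the pseudocount (1 and 64), quantile normalization, median centring, the mean over probe sets, the filter, and each array left out in turn. Arrays have no read depth, and their number limits the precision.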

Additional observations from a re-analysis of the deposited data

Results flagged for a closer look

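On their brightest probe sets, ELF3 and SPDEF stood on opposite sides of shCTRL with the 2 hairpins, and the difference between hairpins was not tested because each had 1 array. ELF3 was at -0.48 with hairpin #1 and 0.22 with hairpin #2, in log2 units relative to shCTRL. All 3 ELF3 probe sets had these signs. SPDEF was at -0.023 and 0.092, both smaller than the SD of 0.33 that genes of like brightness showed between shCTRL and untransfected cells. Its probe sets 214404_x_at and 214403_x_at had the same signs. Both hairpins were below shCTRL on 220192_x_at (-0.060 and -0.080) and on 213442_x_at (-0.027 and -0.17), so the SPDEF signs depended on the probe set. ELF5 met the same criterion with values of 0.043 and -0.0096, but it was below the filter and its other probe set had the opposite signs, -0.13 and 0.15, so no direction is read from them.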

How the results depend on the processing

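No paired analysis was possible because each state had 1 array. Over the 20 differences of the 4 members, 104 of 116 recomputed values moved by less than the SD between shCTRL and untransfected cells among the 500 genes nearest in brightness. Averaging all probe sets of a gene gave EHF 1.62 over both hairpin arrays against both others, 1.58 for hairpin #2 minus shCTRL and 0.54 for shCTRL minus untransfected, gave ELF3 0.17 and 0.29 for the first and last of these, gave ELF5 0.11 for hairpin #2 minus hairpin #1, and left 4 genes past the 1-unit separation in place of 7. Leaving out 1 array at a time put EHF between 1.60 and 2.45 and ELF3 between -0.54 and 0.16, ETS genes past the separation at 1 to 3 (EHF in each, with ETS1 and ETV1 without hairpin #1), and all genes at 22 to 130. Signs changed in 16 of the 116 values, none of them for a difference above 0.19. limma called 0 genes under every alternative run, with 569 to 1534 at an unadjusted p under 0.05. After the data were seen, list medians were also computed without each array, and those that moved by over 1.5 times stand beside the lists above, leaving aside the ETS and RAS-ERK lists, whose medians were near 0. Intensities near the array medians were not told apart from background.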

Other observations

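Some epithelial genes paired hairpin #2 with untransfected cells. They were chosen after their values were seen. KRT20, a keratin of differentiated colon cells, had intensities of 52.5 with hairpin #1 and 275 with hairpin #2, against 63.7 in shCTRL and 166 in untransfected cells. GRHL3, a factor of epidermal barrier formation, had 45.4 and 207, against 44.6 and 162. CDX2, an intestinal identity factor, was higher with hairpin #2 alone, at 131, against 79.9 with hairpin #1, 83.4 in shCTRL and 89.3 in untransfected cells. The circadian repressor PER2 was the 1 gene besides EHF, MECOM and PRKAA2 at least 1 log2 unit up both for hairpin #1 over shCTRL and for hairpin #2 over untransfected cells. It had 135 and 356 with hairpins #1 and #2, against 52.3 in shCTRL and 97.5 in untransfected cells.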
